A study of Mus musculus with 15 samples.

Results

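The genes of the nuclear pore complex were followed across leukaemic and normal mouse bone marrow. They were chosen by name, as the rows of the normalized count table whose symbol is on a list of 32 nucleoporins and transport receptors. Of these, 31 were found among 38315 genes, and all 31 passed the filter on low values (at least 10 in at least 4 samples), which 18941 genes passed. Nup58 had no row under that symbol and is not counted. Total RNA of 15 marrow samples was sequenced in bulk. The leukaemic group (AML, acute myeloid leukaemia) held 7 marrows of NUP98-NSD1/FLT3-ITD mice, a genotype that combines a fusion of the nucleoporin gene NUP98 to the histone methyltransferase gene NSD1 with an internal tandem duplication in the receptor FLT3. Normal marrow came from wild-type mice, as 4 samples of whole marrow and 4 of lineage-negative marrow. The latter is marrow depleted of cells that carry markers of mature blood lineages, so it is rich in immature cells. The age and sex of the mice, the promoters of the NUP98-NSD1 and FLT3-ITD alleles and the antibodies used for depletion are not given in the sources used here. Nothing in the labels says that samples of a group came from separate animals, so p-values measure the spread between these samples.

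The nuclear pore complex is the channel through the nuclear envelope by which proteins and RNA pass between nucleus and cytoplasm. An outer ring on each face, built from the Y-shaped complex around Nup107 and Nup160, and an inner ring built around Nup93 form its scaffold, which membrane nucleoporins anchor in the envelope. Nucleoporins rich in phenylalanine-glycine (FG) repeats, among them Nup98 and Nup62, line the channel and bind the receptors that carry cargo, such as the importin Kpnb1 and the exportin Xpo1. In human AML, NUP98 is known as the partner of many fusions that join its FG repeats to another protein, NSD1 among them.

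The labels were checked against lists of marker genes. The summed level of 11 genes of maturing neutrophils was 1044 to 18243 normalized counts in lineage-negative libraries, 456020 to 1210400 in whole marrow and 419270 to 1485800 in AML. The summed level of 9 progenitor genes was 128170 to 186770 in lineage-negative marrow, 21142 to 45781 in whole marrow and 23480 to 93668 in AML. The summed level of 10 erythroid genes was 806770 to 1989300 in whole marrow, 7022 to 50753 in lineage-negative marrow and 404 to 32131 in AML. No gene of the marker lists was at 0 in every library of a group. Estimated depth (M reads per library) was 11.4 to 17.2 M in whole marrow, 20.3 to 28.1 M in lineage-negative marrow and 20.3 to 35.1 M in AML.

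Nuclear pore genes were lower in AML than in lineage-negative marrow, across nearly every part of the complex. Of the 31 genes, 22 fell and none rose by limma at an adjusted p under 0.05, against a background of 21.6% of all genes lower and 23.5% higher. At an unadjusted p under 0.05, 25 were lower (25.1% of all genes) and 0 higher (26.2% of all genes). The fall was at least 2-fold for 8 genes (background 12.5%): Ahctf1, Nup85, Nup93, Nup43, Nup188, Ndc1, Nup133 and Nup155. The median log2 difference of the 31 genes was -0.83, against 0.02 over all genes, and 30 of 31 differences were below 0, against 49.1% of all genes. For 17 genes every AML library lay below every lineage-negative library (background 17.6%). When the values were rescaled by TMM (trimmed mean of M values, which sets libraries level on the bulk of their genes), 25 genes fell (background 25%) and the median was -0.81. The genes that did not pass the test were Nup98, Nup210, Nup153, Nup88, Tpr, Xpo1, Nup35, Seh1l and Sec13, of which Nup88, Tpr and Xpo1 passed under TMM. Under quantile normalization, which gives every library the same distribution of values, 30 genes fell (background 28.7%), all but Sec13. There Nup98 was at -0.36 (adjusted p = 0.0154), Nup210 at -0.56 (0.00996), Nup153 at -0.46 (0.00741), Seh1l at -0.47 (0.0133) and Nup35 at -0.81 (0.0465). Nup153, Nup35 and Seh1l also passed when libraries were weighted by their spread (array weights), with adjusted p of 0.0225, 0.00615 and 0.0082.

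**Figure D1:**
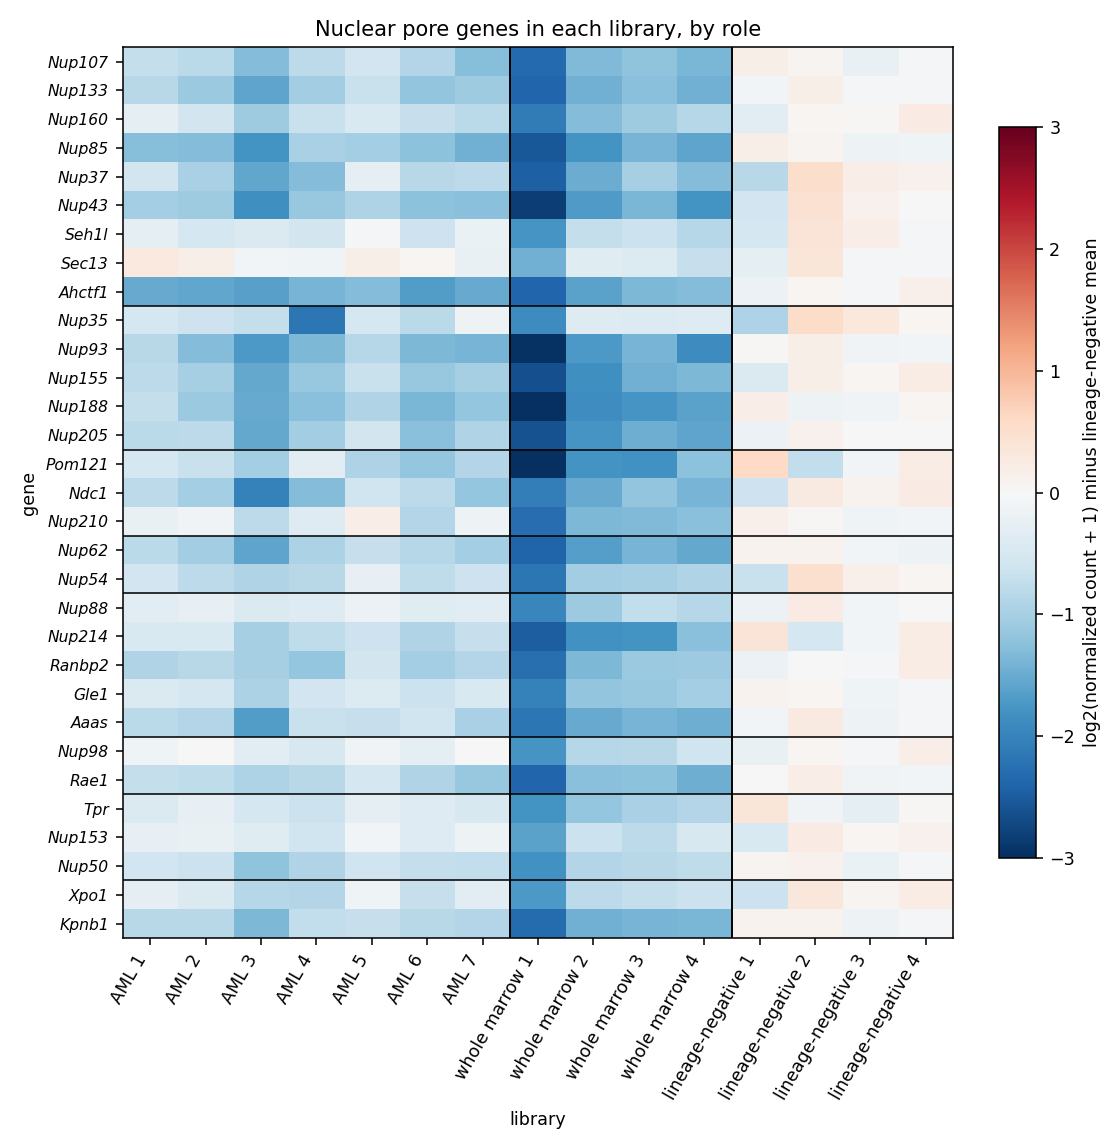
Each cell is the log2(normalized count + 1) of one gene in one library minus the mean of the 4 lineage-negative libraries, on a blue (lower) to red (higher) scale cut at 3. Rows are the 31 genes grouped by role with lines between roles, and columns are the libraries by group. AML columns are blue in most rows, the row of Sec13 is near white in AML, and whole marrow replicate 1 is the darkest blue column of its group, lowest in all 31 genes.

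In bulk marrow, fewer cells of a type and less RNA per cell cannot be told apart. The marker levels differ between AML and lineage-negative marrow, with maturing neutrophil genes higher in AML for 11 of 11. Genes of monocytes and macrophages were higher for 9 of 9, of B cells for 7 of 9, and of T and NK cells for 6 of 8 (1 lower). Of 6 genes of stroma and endothelium 4 were higher and 1 lower. Progenitor genes were lower for 6 of 9, and 1, Spi1, was higher by 1.83. Of 15 genes of proliferating cells, 6 were lower in AML and 0 higher, at a summed level of 38985 to 92532 against 95946 to 116960. The part of these differences in the result on nuclear pore genes was not tested.

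Nup98 is the member that the fusion of this genotype involves, Ahctf1 had the lowest log2 difference between AML and lineage-negative marrow, and Sec13 the highest. Their promoters are shown because the 3 genes stand at different places in that range. The sequences are RefSeq's, in GRCm38.p6, from 250 bases before the first listed transcription start to 50 bases after it, read 5′ to 3′ on the gene's strand. Their coordinates are of that build and not comparable with the gene spans of the table. Capitals mark matches to the short motifs described with the promoters of the other members.
Nup98, chr7:102210117-102210416, minus strand: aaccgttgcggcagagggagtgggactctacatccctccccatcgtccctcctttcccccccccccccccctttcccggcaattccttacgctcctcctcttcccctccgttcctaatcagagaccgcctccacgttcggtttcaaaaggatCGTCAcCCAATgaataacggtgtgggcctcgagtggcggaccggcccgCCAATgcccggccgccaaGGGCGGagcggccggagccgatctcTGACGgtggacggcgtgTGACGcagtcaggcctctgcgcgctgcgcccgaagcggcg
Ahctf1, chr1:179803966-179804265, minus strand: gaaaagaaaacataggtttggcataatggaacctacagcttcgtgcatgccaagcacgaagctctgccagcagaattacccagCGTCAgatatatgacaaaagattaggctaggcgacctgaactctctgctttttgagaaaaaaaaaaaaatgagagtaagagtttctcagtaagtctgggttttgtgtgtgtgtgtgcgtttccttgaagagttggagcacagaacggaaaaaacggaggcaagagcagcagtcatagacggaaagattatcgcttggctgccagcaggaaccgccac
Sec13, chr6:113740632-113740931, minus strand: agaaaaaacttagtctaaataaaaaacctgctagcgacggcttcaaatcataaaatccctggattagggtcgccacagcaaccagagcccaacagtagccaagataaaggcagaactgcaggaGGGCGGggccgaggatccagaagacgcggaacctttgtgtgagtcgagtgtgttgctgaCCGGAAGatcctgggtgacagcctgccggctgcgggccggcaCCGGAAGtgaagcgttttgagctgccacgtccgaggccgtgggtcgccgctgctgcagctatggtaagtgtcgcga

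Nup98 encodes the FG nucleoporin that also holds the mRNA export factor Rae1 at the pore. In the table the gene spans 101768605 to 101859383 on the minus strand of chromosome 7 (ENSMUSG00000063550). Its normalized count ran from 2467 to 3512 in the 7 AML libraries, with a median of 3152. The 4 lineage-negative libraries had 2945, 3609, 3388 and 3987, and the 4 whole marrows 1015, 1909, 1957 and 2292. The AML and lineage-negative ranges overlapped, and every AML library was above every whole marrow. Against lineage-negative marrow AML differed by -0.19 ± 0.20 on the log2 scale (SE, 95% interval -0.60 to 0.22, adjusted p = 0.46), and an exact two-sided permutation test gave p = 0.136 (0.136 after adjustment over 3 comparisons). A lower level in AML by up to 0.60 or a higher one by up to 0.22 therefore lies within the interval. That interval rests on a spread shared by all 3 groups, whole marrow among them. The SD of log2 values of Nup98 was 0.52 in whole marrow, 0.18 in AML and 0.18 in lineage-negative marrow. Counts per gene do not separate reads of the fusion, to the extent that they fell on this row, from reads of the normal allele.

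Relative to the rest of the pore, Nup98 stood higher in AML than in lineage-negative marrow. The ratio of Nup98 to the geometric mean of the other 30 genes, which does not depend on how a library is scaled, was 1.97 to 2.64 in AML, 1.89 to 2.24 in whole marrow and 1.41 to 1.66 in lineage-negative marrow. The AML and lineage-negative ratios did not overlap, while those of AML and whole marrow did. The ratios of 7 other members also did not overlap between AML and lineage-negative marrow: Sec13, Nup153 and Nup88 stood higher in AML, and Ahctf1, Nup93, Nup133 and Nup205 lower. These ratios were described without a test. They were computed for the members alone, so no share over all genes stands beside these counts.

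Of the 9 genes of the Y complex, 7 fell in AML against lineage-negative marrow, with a median log2 difference of -0.91. Ahctf1 encodes ELYS, the subunit that ties the Y complex to chromatin when pores form after mitosis, and it lies at 179572459 to 179631245 on the minus strand of chromosome 1. Its level was 1886 to 2460 in AML, with a median of 2092. It was 5367, 6223, 5851 and 6702 in lineage-negative marrow, and 1161, 1982, 2369 and 2438 in whole marrow. All AML libraries were below all lineage-negative ones and overlapped whole marrow. The difference from lineage-negative marrow was -1.51 ± 0.19 (SE, adjusted p = 1.67e-06), so that the AML mean was 35.0% of the lineage-negative mean. The ratio of Ahctf1 to the other 30 genes was 1.38 to 1.84 in AML, below both whole marrow (2.14 to 2.40) and lineage-negative marrow (2.47 to 2.83).

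Nup85, the Y complex arm subunit that binds Seh1l, was at 801 to 1397 in AML, with a median of 1138. It was at 3106, 2942, 2500 and 2532 in lineage-negative marrow and at 473, 800, 1055 and 924 in whole marrow. Every AML library was below every lineage-negative library, and the log2 difference was -1.29 ± 0.20 (SE) at an adjusted p of 3.28e-05. Among the stalk and hub subunits, Nup133 fell by 1.07, Nup107 by 0.91 and Nup160 by 0.64 on the log2 scale. The small subunits Nup43 and Nup37 fell by 1.21 and 0.90. Without lineage-negative replicate 2 or 3, Nup37 no longer passed (adjusted p = 0.0822 and 0.0556), nor did Nup160 without replicate 4 (adjusted p = 0.0685).

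Sec13 and Seh1l, the Y complex subunits that also work outside the pore, Sec13 in the COPII coat of secretory vesicles and both in the GATOR2 complex that regulates mTORC1, did not pass the test. Sec13 lies at 113705023 to 113717704 on the minus strand of chromosome 6 in the table. Its level was 1564 to 2216 in AML, with a median of 1897, against 1500, 2330, 1766 and 1765 in lineage-negative marrow and 666, 1415, 1376 and 1117 in whole marrow. AML and lineage-negative libraries overlapped throughout, with a log2 difference of 0.04 ± 0.20 (SE, 95% interval -0.38 to 0.45, adjusted p = 0.898). Its ratio to the other 30 genes was 1.14 to 1.62 in AML, above the 0.702 to 0.896 of lineage-negative marrow. Seh1l differed by -0.38 ± 0.22 (SE, adjusted p = 0.168).

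**Figure D2:**
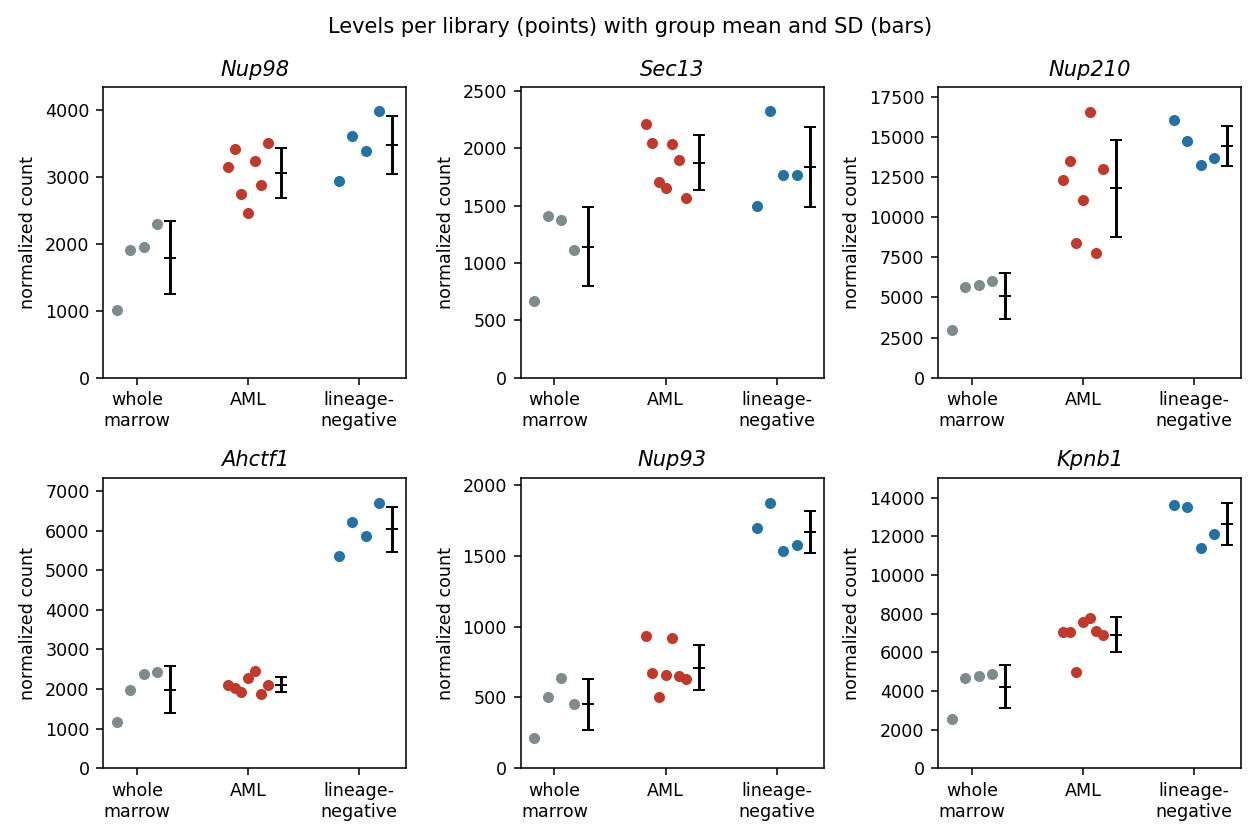
Normalized count (linear axis from 0) of 6 genes in each library, one point per library, with the group mean and SD as a bar to the right. Sec13, Nup98 and Nup210 overlap between AML and lineage-negative marrow, while every AML point of Ahctf1, Nup93 and Kpnb1 lies below every lineage-negative point.

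The inner ring fell for 4 of 5 genes, with a median log2 difference of -1.04. Nup93, the linker on which the inner ring assembles, was at 504 to 931 in AML, with a median of 657. It was at 1694, 1869, 1534 and 1579 in lineage-negative marrow and at 212, 505, 634 and 450 in whole marrow. No AML library reached the lowest lineage-negative one, and the difference was -1.26 ± 0.24 (SE, adjusted p = 0.000238). Its large scaffold partners Nup188 and Nup205 fell by 1.15 and 0.98, and Nup155, which contacts the membrane, by 1.04. Nup35, which helps shape the pore membrane, was the scarcest member per kilobase in AML and lineage-negative marrow. Its level spread from 58.3 to 236 in AML against 140 to 386 in lineage-negative marrow, and its difference of -0.79 ± 0.36 (SE) had an adjusted p of 0.0859. Without lineage-negative replicate 1, where Nup35 was at 140, the difference was -1.09 and the adjusted p 0.0237, and without whole marrow replicate 1, which enters only the shared spread, the adjusted p was 0.0495.

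Of the 3 membrane nucleoporins, Ndc1 and Pom121 fell in AML by 1.10 and 0.79 and Nup210 did not pass. Nup210, known for roles in muscle and T cell differentiation, was the most abundant member per kilobase of exon in AML, with a mean of 1126 normalized counts per kilobase, and came after Kpnb1 alone in lineage-negative and whole marrow (1378 and 487 per kilobase). Its level ran from 7799 to 16560 in AML, with a median of 12293, and was 16073, 14740, 13263 and 13664 in lineage-negative marrow. The AML libraries thus spanned values on both sides of the lineage-negative range, and the difference was -0.33 ± 0.24 (SE, 95% interval -0.83 to 0.16, adjusted p = 0.274). Pom121 rested on single libraries: its adjusted p was 0.0512 without AML replicate 6, and 0.125, 0.0506 and 0.0816 without lineage-negative replicates 1, 3 and 4. With no filter on low values it was 0.0603.

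Both genes of the central channel fell. Nup62, the FG nucleoporin at the core of the channel, was at 978 to 1795 in AML, with a median of 1514, against 3141, 3144, 2765 and 2642 in lineage-negative marrow. Those ranges stood apart, with a difference of -0.99 ± 0.20 (SE, adjusted p = 0.000337). Its partner Nup54 fell by 0.67, a call that was lost without lineage-negative replicate 2, 3 or 4 (adjusted p = 0.127, 0.0787 and 0.0661) or with no filter on low values (0.0569).

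On the cytoplasmic face 4 of 5 genes fell, with a median log2 difference of -0.70. Ranbp2, the large filament protein that binds Ran and attaches SUMO, was at 5654 to 8544 in AML, with a median of 6763. It was at 11123, 12605, 12207 and 14541 in lineage-negative marrow, above every AML library, and the difference was -0.90 ± 0.21 (SE, adjusted p = 0.00166). Aaas, whose protein ALADIN is missing in triple A syndrome, fell by 0.90. Nup214, itself a fusion partner in leukaemia, fell by 0.70, and Gle1, which activates the helicase that releases exported mRNA, by 0.58. Nup88, the partner of Nup214, had the tightest AML values of all members, 1451 to 1739, and lay just below the lineage-negative range of 1740 to 2327. Its difference of -0.33 ± 0.19 (SE) had an adjusted p of 0.176, which became 0.0285 under TMM (-0.31) and 0.0165 without whole marrow replicate 1.

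Rae1, which binds Nup98 and takes part in mRNA export, fell by 0.83 (SE 0.20, adjusted p = 0.00197), with 724 to 1100 in AML against 1477 to 1828 in lineage-negative marrow. The AML mean was 87.8% of the lineage-negative mean for Nup98 and 56.5% for its partner Rae1. Whether these shares differ was not tested.

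Of the nuclear basket, Nup50 fell by 0.77 (SE 0.20, adjusted p = 0.00316), with levels of 1331 to 2069 in AML and 2692 upwards in lineage-negative marrow. Tpr, the coiled-coil protein that forms the basket's filaments, and Nup153, which anchors it, had differences of -0.43 ± 0.19 and -0.30 ± 0.20 (SE) and did not pass (adjusted p = 0.0751 and 0.25). For Tpr, lineage-negative replicate 1 was highest at 11283, the others lay between 7230 and 9072, and AML ran from 5636 to 7403. Nup153 overlapped between AML (2625 to 3710) and lineage-negative marrow (2880 to 4706). Under TMM Tpr passed at -0.41 (adjusted p = 0.0119), and without whole marrow replicate 1 its adjusted p was 0.0113.

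Kpnb1, importin beta, which carries most classical import cargo, was at 4957 to 7753 in AML, with a median of 7059. It was at 13594, 13520, 11366 and 12120 in lineage-negative marrow and at 2563, 4655, 4794 and 4857 in whole marrow. The 3 groups did not overlap, and the difference between AML and lineage-negative marrow was -0.88 ± 0.20 (SE, adjusted p = 0.0011). Xpo1, the main exportin of proteins with a leucine-rich export signal, was at 2983 to 4985 in AML. In lineage-negative marrow it was at 3532, 6960, 5773 and 6346, so that replicate 1 lay within the AML range. Its difference was -0.52 ± 0.23 (SE, adjusted p = 0.0774), and -0.73 without that library (adjusted p = 0.0169). Under TMM it was -0.50 (adjusted p = 0.0216), and without whole marrow replicate 1 the adjusted p was 0.0255.

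**Figure D3:**
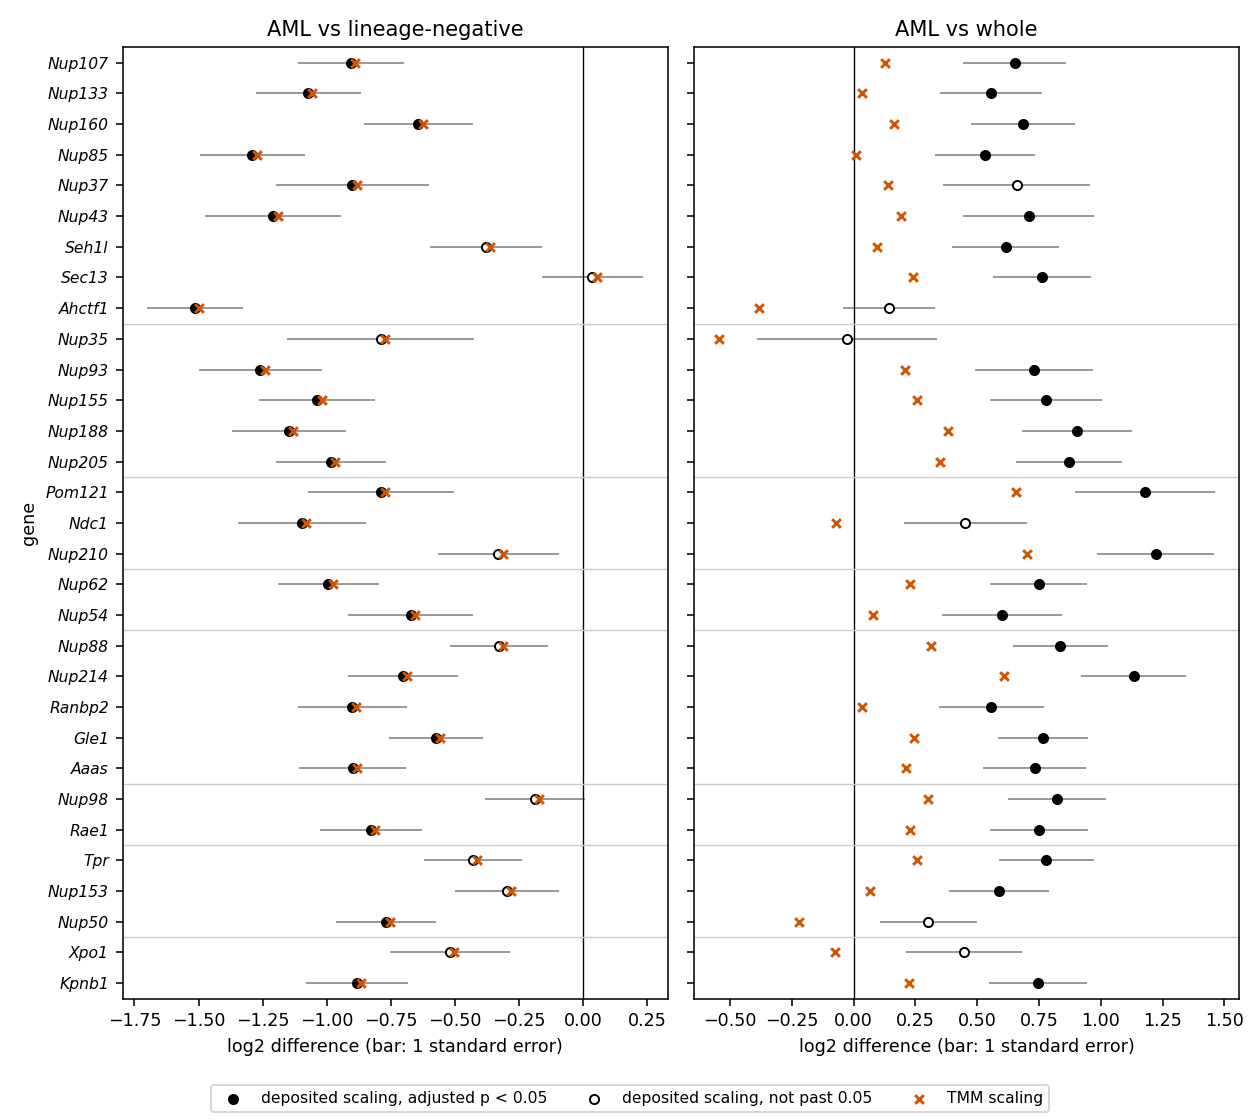
Log2 difference of each of the 31 genes in AML against lineage-negative marrow (left) and against whole marrow (right), with a bar of 1 standard error. Filled points pass an adjusted p of 0.05, open points do not, and crosses give the difference under TMM scaling. On the left points and crosses nearly coincide and all but Sec13 lie below 0, whereas on the right crosses lie nearer 0 and those of Ahctf1, Nup35, Ndc1, Nup50 and Xpo1 below it.

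Against whole marrow, the marrow of mixed maturity, nuclear pore genes were higher in AML on the deposited scale, but by little more than genes in general. Of the 31 genes 25 rose (background 51.5%) and 0 fell by limma (background 12%, and 0 at an unadjusted p under 0.05 against 12.8% of all genes), and 3 rose at least 2-fold (background 27.3%): Nup210, Pom121 and Nup214. The median difference of the members was 0.73, against 0.67 over all genes, and 18 members lay above that all-gene median and 13 below it. Under TMM, which brought the all-gene median to 0.16, 5 genes rose (Nup210, Pom121, Nup214, Nup188 and Nup88, background 26.7%), 1 fell (Ahctf1, background 17.5%), and the median of the members was 0.21. Under quantile normalization 1 rose (Nup210, background 24.3%) and 2 fell (Ahctf1 and Nup50, background 18.1%). For 12 genes no AML library overlapped whole marrow on the deposited scale (background 35.8%). In AML against whole marrow, all 10 erythroid and all 9 B cell genes were lower. On the deposited scale, 7 of 9 genes of monocytes and macrophages, 5 of 8 of T and NK cells and 3 of 9 of progenitors (1 lower) were higher. Under TMM the counts of these lists were 6, 0 and 1 higher, with 2 progenitor genes lower. Of 15 genes of proliferating cells, 0 were higher and 1 lower on the deposited scale, and 0 higher and 7 lower under TMM. The part of these lists in the differences was not tested.

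Whole marrow replicate 1 was the lowest of its group in all 31 genes. The level of 1750 olfactory and vomeronasal receptor genes, taken as background, amounted to 2.93% of the members' counts in that library, 0.749% to 1.04% in the other whole marrows and at most 0.323% elsewhere. Without it, 17 genes rose on the deposited scale. The share of all genes that rose was counted only with every library in (51.5%, and 26.7% under TMM), not without this one. Without it and under TMM, 2 rose, Nup210 by 0.62 (adjusted p = 0.0172) and Nup214 by 0.57 (adjusted p = 0.0258), and Ahctf1 fell by 0.45 (adjusted p = 0.00608). The calls lost on the deposited scale were those of Ranbp2, Nup85, Nup153, Nup93, Nup54, Nup133, Nup43 and Seh1l. Leaving out single AML libraries also ended calls on the deposited scale. These were Nup54 without replicate 1, 5 or 7 (adjusted p = 0.0555, 0.072 and 0.0533), Nup85 without replicate 4 or 5 (0.0544 and 0.0541) and Ranbp2 without replicate 5 (0.0562). Nup37 and Ndc1 passed without AML replicate 3 (0.0281 and 0.0207), and Nup37 also without AML replicate 4, whole marrow replicate 3 or lineage-negative replicate 1 (0.0463, 0.0296 and 0.0401).

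Nup210 was the member with the largest difference from whole marrow on either scale. Whole marrow had 2946, 5632, 5772 and 6033, all below the lowest AML library at 7799, and the difference was 1.22 ± 0.24 (SE, adjusted p = 0.000235), or 0.70 under TMM (adjusted p = 0.00341). Its ratio to the other 30 genes was 6.33 to 10.8 in AML and 5.77 to 6.29 in whole marrow, without overlap, and 5.92 to 8.14 in lineage-negative marrow. Nup214 had 401, 627, 635 and 936 in whole marrow and 1109 to 1618 in AML, a difference of 1.13 ± 0.21 (SE, adjusted p = 0.000183), or 0.61 under TMM (adjusted p = 0.00674). Pom121 had 182, 433, 427 and 636 in whole marrow and 668 to 1176 in AML, a difference of 1.18 ± 0.28 (SE, adjusted p = 0.00144), or 0.66 under TMM (adjusted p = 0.0321). Under quantile normalization Nup210 passed at 0.47 (adjusted p = 0.0344), while Nup214 (0.37, adjusted p = 0.079) and Pom121 (0.41, adjusted p = 0.166) did not.

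Ahctf1 stood at the other end. Its difference from whole marrow was 0.14 ± 0.19 (SE, adjusted p = 0.518) on the deposited scale and -0.38 under TMM (adjusted p = 0.00899), so its direction turns with the scaling. Nup98 was higher in AML by 0.82 ± 0.20 (SE, adjusted p = 0.00137), and the exact permutation test gave p = 0.00303, the smallest of 330 splits (0.00909 after adjustment). Its excess over the all-gene median was 0.15, and under TMM the difference was 0.30, with adjusted p = 0.0521 by limma.

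Expressed within each library, AML and whole marrow overlapped. The 31 genes together made up 0.211% to 0.345% of all normalized counts in AML, 0.235% to 0.285% in whole marrow and 0.519% to 0.629% in lineage-negative marrow. Lineage-negative marrow lay above both.

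**Figure D4:**
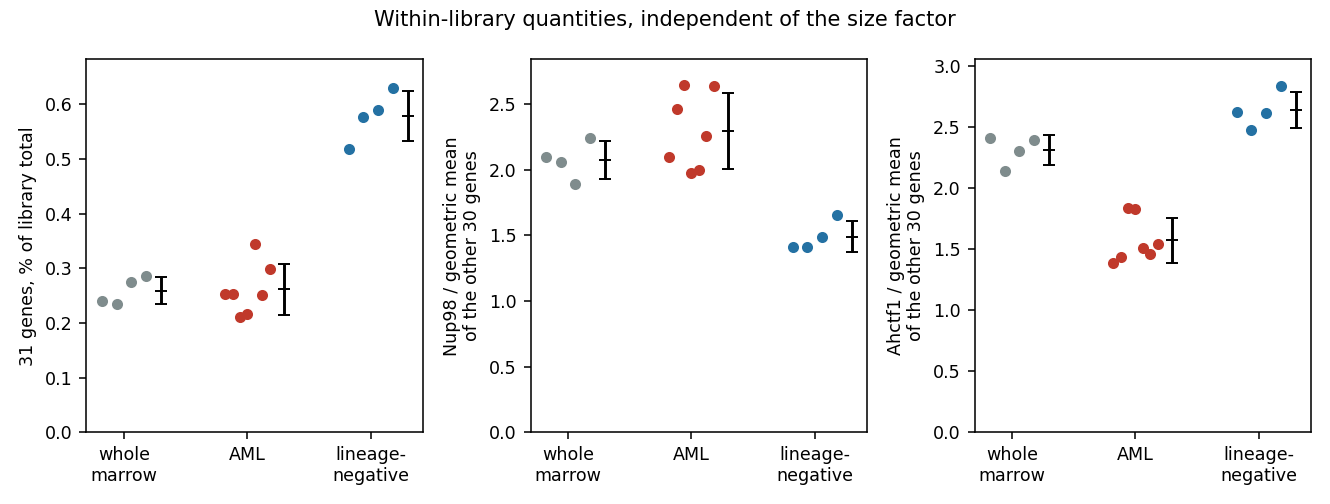
Quantities that do not depend on the size factor of a library, one point per library with mean and SD as a bar, on linear axes from 0. The 31 genes take a larger share of the total in lineage-negative marrow (left), Nup98 relative to the other 30 genes is lowest in lineage-negative marrow (middle), and Ahctf1 relative to them is lowest in AML (right).

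Nuclear pore genes were higher in normal lineage-negative marrow than in normal whole marrow. Of the 31 genes 30 rose (background 44.3%), all but Nup35 (0.76, adjusted p = 0.112, and 1.07 with adjusted p = 0.0315 without lineage-negative replicate 1), and 26 rose at least 2-fold (background 33.1%), while 0 fell by limma (background 18.9%, and 0 at an unadjusted p under 0.05 against 20.1% of all genes). The median difference was 1.56 against 0.59 over all genes, and 30 genes did not overlap between the groups (background 41.1%). Under TMM 27 genes rose (background 30.3%), 18 of them at least 2-fold (background 15.1%), with a median of 1.02 against 0.064 over all genes. Under quantile normalization 26 rose (background 35.8%). All 11 genes of maturing neutrophils, 9 of 9 of B cells, 8 of 10 of erythroid cells, 6 of 8 of T and NK cells and 6 of 9 of monocytes and macrophages were lower in lineage-negative marrow. There, 8 of 9 progenitor genes were higher and 1 was lower. Of 15 proliferation genes 7 were higher, a share near the 44.3% of all genes, and under TMM 4 were higher and 2 lower. The part of these lists in the result was not tested. The range went from 0.73 for Sec13 to 2.05 for Nup188. This comparison and the one of AML with lineage-negative marrow share their lineage-negative libraries, so for each gene the 2 values are not independent: Nup188 had 2.05 here and -1.15 there, Ahctf1 1.66 and -1.51, and Sec13 0.73 and 0.04. For Nup98 the difference was 1.01 ± 0.22 (SE, adjusted p = 0.000573), and the exact permutation test gave p = 0.0286, the smallest of 70 splits (0.0429 after adjustment). That last value became 0.0857 without lineage-negative replicate 4.

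The order of the group means was lineage-negative, then AML, then whole marrow for 29 of 31 genes. Sec13 was highest in AML, and Nup35 lowest in AML. Under TMM that order held for 25 genes, and whole marrow stood above AML for Ahctf1, Nup35, Ndc1, Nup50 and Xpo1.

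Among the 7 leukaemias the SD of log2 values had a median of 0.268 over the nuclear pore genes and of 0.411 over all genes tested, which include genes of lower level. The members ranged from 0.0878 for Nup88 to 0.638 for Nup35. In whole marrow the medians were 0.516 and 0.476, and in lineage-negative marrow 0.179 and 0.334. Within AML the members moved with the library: replicate 3 was lowest in 19 of 31 genes and replicate 5 highest in 19. The summed level of the members ran from 55461 in replicate 3 to 84111 in replicate 5, and that of the 15 proliferation genes from 38985 to 92532 in the same libraries. Any link between these was not tested. In lineage-negative marrow, replicate 1 was lowest in 17 genes and highest in 9, Pom121, Nup214 and Tpr among the latter.

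Genes of the transport machinery outside the pore were counted from lists chosen by function. Of 22 importins and exportins tested among 23 listed, 11 fell and 0 rose in AML against lineage-negative marrow (0 rose under TMM as well), with a median of -0.52. Ipo4, an importin of histones and ribosomal proteins, and Xpot, the exportin of tRNA, fell by 1.77 and 1.59, while Xpo6, the exportin of actin, and Kpna4, an importin alpha, had differences of 0.15 and 0.06 that did not pass. Of 7 genes of the Ran cycle, which gives transport its direction, 5 fell, with a median of -0.90. Rangrf, the Ran-binding factor also called Mog1, fell by 2.42 and the Ran-binding protein Ranbp1 by 1.20, while Nutf2, the import receptor of Ran, had -0.78 and Ranbp3 -0.20. Of 15 genes of mRNA export 8 fell, with a median of -0.50. The helicase gene Ddx19a fell by 0.87 and Thoc5 of the THO complex by 0.75, while Thoc2 and Mcm3ap had -0.07 and -0.15. Over all genes 21.6% fell. The medians of these lists, like that of the pore genes, lay below the all-gene median of 0.02.

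**Figure D5:**
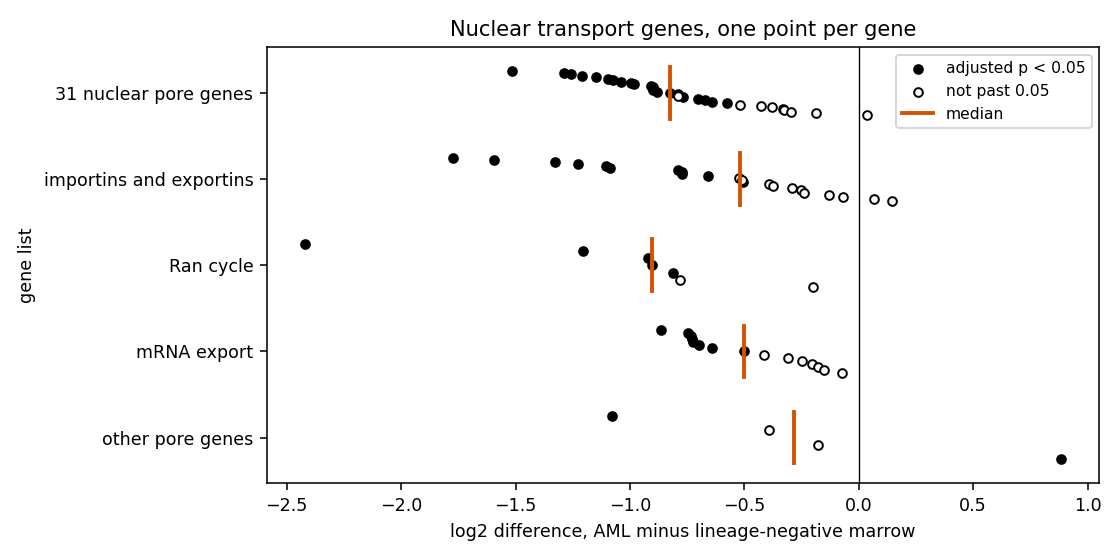
Log2 difference of AML against lineage-negative marrow for each gene (points) of the 31 nuclear pore genes and of 4 lists around them, with the median of each list as a vertical line. Filled points pass an adjusted p of 0.05, and in the importin, Ran and mRNA export lists every filled point lies below 0.

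Among other genes linked to the pore, 4 of 8 listed symbols could be tested. In AML against lineage-negative marrow 1 fell and 1 rose, and Tmem33 and Tmem209 did not pass. Means of Tmem33 and Tmem209 were 1034 and 809 in AML and 1414 and 932 in lineage-negative marrow. Nupl2, on the cytoplasmic face, fell by 1.08 in AML against lineage-negative marrow (SE 0.24, adjusted p = 0.000941). Nup210l, the paralogue of Nup210 known from testis, rose by 0.89 (SE 0.29, adjusted p = 0.0154), at a mean of 52.1 ± 9.64 (SD, n = 7) in AML and 27.7 ± 4.92 (SD, n = 4) in lineage-negative marrow. Against whole marrow on the deposited scale, where 51.5% of all genes rose, 16 of 22 importins and exportins rose and 1 fell, 3 of 7 Ran cycle genes rose, and 14 of 15 mRNA export genes rose. Under TMM, where 26.7% of all genes rose, 6 of 22 importins and exportins rose and 2 fell, 1 of 7 Ran cycle genes rose, and 6 of 15 mRNA export genes rose.

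Promoters of 27 of the 31 genes were matched in RefSeq's GRCm38.p6 table, and Nup85, Nup43, Seh1l and Nup35 were not matched. Their GC content had a median of 64.0%, against 52.7% over 27025 promoters, with Ahctf1 lowest at 45.3%. For 6 motifs, matches were searched on both strands, and overlapping matches counted for each motif. The ETS motif CCGGAAG was in 29.6% of the members' promoters and in 9.12% of all promoters, and the NRF1 motif in 14.8% and 4.78%. The SP motif GGGCGG was in 70.4% and 35.9%, the NFY motif CCAAT in 40.7% and 37.9%, the E-box CACGTG in 14.8% and 7.24%, and the cyclic AMP response core TGACG in 51.9% and 21%. The Nup98 promoter printed above held 6 matches, to NFY, SP and the cyclic AMP response core. That of Sec13 held 3, to ETS and SP, and that of Ahctf1 held 1, to the cyclic AMP response core. A match describes letters in this window and is not a binding site.

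Some members share their position with other genes, and the strand used in counting is not given in the sources used here. Pcmt1 overlaps Nup43 on the other strand at a mean level that is 469% of that of Nup43. Genes overlapping Nup133 (Galnt2l), Nup88 (Rabep1), Nup214 (Fam78a), Nup35 (Dusp19) and Pom121 (Nsun5) had mean levels of 64.4%, 58.5%, 53.8%, 36.9% and 33.2% of the member's. The values of these 6 genes are therefore uncertain to the extent that reads were divided between neighbours.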

How the data were processed

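Bulk RNA-seq values of 15 mouse marrow samples were analysed. Per the labels, TRIzol was used for extraction and TruSeq Stranded Total RNA for the libraries. The file holds a signal, called the normalized count here: a DESeq2 size factor (poscounts, as the table's name states) was applied by the authors to estimated counts before they deposited them. The submitters' processing notes name STAR, Partek, DESeq2 and mm10, without versions or roles. Of 38066 gene identifiers found in a GRCm38 annotation only 861 had the same start in the table, so gene coordinates are given as in the table, whose build is not named there.

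Columns were joined to samples through the sample descriptions, and groups came from the titles. Depth was estimated as the total divided by the value of 1 read. Only 82.2% to 87.1% of low values were whole multiples of that value (within 0.02 steps), so no count test was run. Values were tested as log2(value + 1) with limma 3.58.1 (R 4.3.3), with one fit of 3 group means over all 15 samples, empirical Bayes with trend, two-sided, for the 18941 genes with at least 10 in at least 4 samples, and Benjamini-Hochberg adjustment over all of them. Calls used an adjusted p under 0.05, and fold changes are on the log2(value + 1) scale. TMM factors (trims 0.3 and 0.05) were computed from the deposited values, because the median of all genes differed from 0 against whole marrow. Nup98 was also tested by exact permutation, adjusted over 3 comparisons. All members are named, and of each transport list the 2 highest and 2 lowest differences between AML and lineage-negative marrow. The members, lists and tests were chosen with earlier results of these data known. The fit was tested on simulated data. Other pseudocounts, filters, scalings, weights, a replicate block and leaving out each library were tried.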

Additional observations from a re-analysis of the deposited data

Results flagged for a closer look

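In 7 of the 93 combinations of a member and a group, 1 library lay apart from the others of its group by Dixon's criterion, which chance meets in about 1 in 20 groups. AML replicate 3 was apart and low for Nup43 (118 normalized counts, the other AML libraries 177 to 222), Aaas (325, the others 535 to 687) and Kpnb1 (4957, the others 6887 to 7753). Whole marrow replicate 1 was apart and low for Nup35 (71.0, the others 199 to 204), Nup210 (2946, the others 5632 to 6033), Nup50 (873, the others 1683 to 1815) and Kpnb1 (2563, the others 4655 to 4857). Whole marrow replicate 1 had the lowest total of its group's libraries as well, at 10221000 normalized counts. TMM multiplied the values of that library by 1.86, and those of the other whole marrows by 1.14 to 1.20. The 31 genes made up 0.241% of the total of replicate 1, within the 0.235% to 0.285% of its group. Dixon's criterion was applied on the deposited scale alone, so a library low as a whole is not separated from single genes that are low.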

How the results depend on the processing

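Against lineage-negative marrow, 19 to 26 members were lower and 0 higher in AML when each library was left out. The count was 20 with no filter, where Nup54 and Pom121 lost their calls, 25 under TMM, 27 with array weights and 30 under quantile normalization. Against whole marrow the count depended on scaling. There, 5 members were higher and 1 lower under TMM, 1 higher and 2 lower under quantile normalization, and 2 higher and 1 lower under TMM without whole marrow replicate 1, an alternative chosen after seeing the data. Leaving out each library gave 17 to 27 higher and 0 lower. The share of all genes called was counted only for the main fit, TMM and quantile normalization, each with all libraries. Lineage-negative against whole marrow gave 30 to 31 higher and 0 lower when each library was left out, 27 higher under TMM, and 26 both under quantile normalization and under TMM without whole marrow replicate 1.

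No pairing by replicate number was seen in the values. The correlation of same-numbered samples ran from -0.29 to 0.17 with a median of 0.02 over 12 pairs. For samples of different number it ran from -0.24 to 0.19 with a median of -0.02 over 36 pairs. A sample correlated best with its own number in 7 of 24 cases. Low correlations cannot show that samples came from different animals, so pairing is not excluded. With the replicate block, 16 members were higher in AML than in whole marrow, and Nup214, Gle1, Nup160 and Pom121 lost their call against lineage-negative marrow.

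For Nup98 by exact permutation, AML against whole marrow was 0.30 under TMM (adjusted p = 0.05) and 0.071 under quantile normalization, and lineage-negative against whole marrow 0.47 (adjusted p = 0.05) and 0.43. AML against lineage-negative marrow was -0.36 under quantile normalization (adjusted p = 0.0273). Leaving out each library gave -0.27 to -0.12, 0.57 to 0.96 against whole marrow, and 0.76 to 1.15 for the normal groups, where the value without lineage-negative replicate 4 was 0.94.

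Single members changed direction as follows. Against whole marrow under TMM, Nup50 was at -0.22, Xpo1 -0.076, Ahctf1 -0.38 and Ndc1 -0.071. Under quantile normalization, Sec13 was at -0.076 against lineage-negative marrow, and against whole marrow Kpnb1 was at -0.019, Ranbp2 -0.21, Nup50 -0.45, Xpo1 -0.30, Nup85 -0.22, Nup153 -0.15, Ahctf1 -0.60, Rae1 -0.014, Ndc1 -0.31, Nup93 -0.047, Nup54 -0.18, Nup37 -0.11, Aaas -0.060, Nup133 -0.20, Nup160 -0.068, Nup107 -0.11 and Seh1l -0.14. With array weights Ahctf1 was at -0.077, and with background subtracted Nup35 was at 0.068. Under TMM without whole marrow replicate 1, Ranbp2 was at -0.067, Nup50 -0.30, Xpo1 -0.16, Nup85 -0.061, Nup153 -0.0064, Ahctf1 -0.45, Ndc1 -0.079, Nup54 -0.049 and Nup133 -0.050. Leaving out each library gave Sec13 -0.056 to 0.16 against lineage-negative marrow, and against whole marrow Ahctf1 -0.10 to 0.26 and Nup35 -0.40 to 0.20. Beyond the scaling itself, the cause was not tested. Whole marrow had the lowest depth and the widest spread, which limits what can be said of differences from it.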

Other observations

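The row under Nupl1, an older symbol of Nup58, had a mean of 2.58 normalized counts over all samples. The gene Gm49336, whose span overlaps it on the same strand, had a mean of 1984. How reads were divided between these rows was not tested, and no level of Nup58 is given.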
